A study of Homo sapiens with 42 samples.

Results

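RNA levels were compared between untreated acute myeloid leukaemia cell lines that carry a KMT2A rearrangement and lines that do not. Members were chosen by label: the DMSO libraries of MOLM-13 and MOLM-14 (6 libraries) were set against the DMSO libraries of KG-1, OCI-AML3 and SKM-1 (9 libraries), which makes 15 of the 30 libraries with a column in the deposited table and of the 42 libraries that the labels describe. The series as a whole measured the response of leukaemia lines to decitabine, a cytidine analogue that inhibits DNA methyltransferases. All cells used here received the solvent DMSO alone (0 nM decitabine), their genotype is given as wild type, meaning that no gene had been engineered, and RNA was taken at 72 h. Each line is represented by 3 replicates.

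MOLM-13 and MOLM-14 were both established from 1 patient with acute monocytic leukaemia and carry the fusion of KMT2A with MLLT3, together with an internal tandem duplication of FLT3. They are therefore sister lines and not independent cases, and the fusion, the FLT3 lesion, the patient of origin and the culture history cannot be told apart in this design. KG-1 grew from an erythroleukaemia that evolved to acute myeloid leukaemia, OCI-AML3 carries mutations of NPM1 and DNMT3A, and SKM-1 came from a leukaemia that followed a myelodysplastic syndrome. These lesions are background knowledge on the lines: a table of values per gene shows no fusion transcript.

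KMT2A encodes a histone H3 lysine 4 methyltransferase that maintains expression of the HOX genes during blood development. In rearranged leukaemia its amino-terminal part is joined to a partner such as MLLT3, a reader of acylated histones, and the fusion recruits the elongation machinery and the methyltransferase DOT1L to target genes. HOXA9 and its cofactors MEIS1 and PBX3 are the best-known targets, with MEF2C, FLT3 and MYB among others. High HOXA and MEIS1 levels are not restricted to this class, since leukaemia with mutant NPM1, the class of OCI-AML3, is also known for them.

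Values are the authors' normalized counts, compared as log2(value + 1), so that a difference of 1 is a doubling at levels well above the pseudocount of 1. Differences are those between the mean of the 2 MOLM line means and the mean of the 3 others on this scale, and ± after a difference is its SE. A gene was tested when it reached 10 in at least 3 of the 15 libraries, which 20217 genes did, and it was called at a Benjamini-Hochberg adjusted p below 0.05 in a limma fit over all of them. The estimated depth was 55.5 to 75.0 M reads for MOLM-13 and 61.4 to 69.3 M for SKM-1, but 2.02 to 31.2 M for MOLM-14, KG-1 and OCI-AML3. Each side of the comparison thus has 1 deeply sequenced line, and the labels name no batch. Line means of MOLM-13 and MOLM-14 correlated at 0.900 over the tested genes, the highest of the 10 line pairs. Depth moved with likeness as well: by the median absolute difference MOLM-13 was nearest to the other deep line, SKM-1 (0.61), and next to MOLM-14 (0.63), while MOLM-14 and OCI-AML3 differed by 0.66. The second replicates of MOLM-14, KG-1 and OCI-AML3 were the shallowest, with 2.02 to 2.97 M reads, and the counts below are also given without them. The part of depth in the results was not tested beyond the differences within each depth set, and where such a difference has the opposite sign to a call stated for a gene, it is given beside the call or with the alternative settings. The leukocyte markers PTPRC and CD33 were present in all 5 lines. PTPRC, the pan-leukocyte phosphatase CD45, was lowest in MOLM-13 (3931 ± 114, SD, n = 3). CD33, a myeloid surface antigen, was lowest in KG-1 (589.7 ± 19.6, SD, n = 3). Other markers of their list were low in the MOLM libraries: ANPEP ran from 0.97 to 76.8 and FCER1G from 3.77 to 32.0. Of the 11 pan-leukocyte and pan-myeloid genes tested, 2 were higher and 6 lower in the MOLM lines, where 23.6% and 28.7% of all genes were. In such bulk libraries a smaller share of cells of 1 state and less RNA per cell cannot be told apart.

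The 2 sides differed widely. Of the 20217 genes tested, 4772 (23.6%) were higher and 5808 (28.7%) lower in the MOLM lines, 52.3% in all, and the median difference over all tested genes was -0.093. A call of this kind can rest on a single line, because its p-value measures the spread between libraries and not between lines: 6338 of the called genes (59.9%) had at least 1 pair of lines with the opposite sign, and 2552 had opposite signs in the deep pair (MOLM-13 minus SKM-1) and the less deep set (MOLM-14 minus the mean of KG-1 and OCI-AML3). A stricter rule therefore asked that a gene be called in the same direction in each of the 6 pairs of a MOLM line with another line. It held for 1298 genes (6.42%), 676 higher (3.34%) and 622 lower (3.08%), and these are called separated below. Without the 3 shallowest libraries 5434 genes were higher and 6448 lower, and 867 and 827 were separated. Scaled without mitochondrial genes, the separated genes split into 501 higher and 823 lower, since this scaling moved the median of all genes by -0.12, while quantile normalization moved it by 0.14. With the line as the unit, 2 lines against 3, limma called 4 genes (DACH1 higher; MBOAT2, SESTD1 and the pseudogene RPS2P5 lower; 0.0198% in all, 0.00495% higher and 0.0148% lower), and 1409 had an unadjusted p below 0.05.

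Genes that were close to silent in the other lines headed the separated genes, with transcription factors and secreted or membrane-bound ligands among them. A ranking by the size of the difference favours such genes. DACH1, a transcriptional corepressor of the SKI family and the only higher gene called with the line as the unit, ran from 6643 to 7995 (median 7448) in the 6 MOLM libraries and from 28.9 to 70.4 (median 40.6) in the 9 others. Its line means were 7820.4 ± 176 in MOLM-13, 6963 ± 306 in MOLM-14, 38.5 ± 2.97 in KG-1, 37.8 ± 7.8 in OCI-AML3 and 68.2 ± 1.94 in SKM-1 (SD, n = 3 each). All 6 MOLM libraries lay far above all 9 others, with a difference of 7.29 ± 0.090 (SE), limma adjusted p = 3.85e-15. MBOAT2, an acyltransferase that remodels membrane phospholipids, showed the reverse: it ran from 1.62 to 51.3 (median 3.84) in the 6 MOLM libraries and from 1470.1 to 3658 (median 3301) in the 9 others. Its difference was -8.58 ± 0.49 (SE), limma adjusted p = 8.28e-09, and the highest MOLM value was that of the shallowest MOLM-14 library. The promoters of these 2 genes are shown because both were called with the line as the unit and because DNA methylation at CG dinucleotides is what the study's drug acts on. Each is the stretch of 250 bases before the annotated start, from RefSeq on GRCh38.p14, with CG dinucleotides in capitals.
DACH1 (chr13:71867205-71867454, minus strand): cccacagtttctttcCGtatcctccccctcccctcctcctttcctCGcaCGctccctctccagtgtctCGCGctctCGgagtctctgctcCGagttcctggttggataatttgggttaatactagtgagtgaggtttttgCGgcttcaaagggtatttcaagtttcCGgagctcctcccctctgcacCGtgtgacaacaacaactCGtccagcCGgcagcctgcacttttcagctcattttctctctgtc
MBOAT2 (chr2:9003685-9003934, minus strand): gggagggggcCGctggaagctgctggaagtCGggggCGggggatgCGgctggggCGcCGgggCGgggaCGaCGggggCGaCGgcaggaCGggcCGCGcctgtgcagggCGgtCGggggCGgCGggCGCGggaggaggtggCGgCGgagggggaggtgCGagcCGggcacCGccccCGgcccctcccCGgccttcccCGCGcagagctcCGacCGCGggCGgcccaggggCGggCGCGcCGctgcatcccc
The DACH1 window holds 12 CG dinucleotides and that of MBOAT2 37, against a median of 11 over the 35116 promoter windows of the table, of which 93.9% hold at least 1. Methylation was not measured in these libraries.

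Among the other genes with the largest positive differences, several belong to a few known groups. SKIDA1, a gene with a SKI/DACH domain like that of DACH1, ran from 1148 to 1943 (median 1483) in the 6 MOLM libraries and from 0 to 26.1 (median 8.26) in the 9 others, a difference of 7.56 ± 0.48 (SE), limma adjusted p = 2.27e-08. The homeobox genes HMX3 and HMX2, neighbours on chromosome 10, are developmental transcription factors of the inner ear and brain. HMX3 ran from 1142 to 3278 (median 2213) in the 6 MOLM libraries and from 3.83 to 13.8 (median 11.9) in the 9 others, and HMX2 ran from 94 to 240.4 (median 162) in the 6 MOLM libraries and from 0 to 1.87 (median 0) in the 9 others. Both were higher in MOLM-14 than in MOLM-13 (MOLM-13 minus MOLM-14 -1.46 and -1.24) on the log2 scale. ZFP57, a zinc finger protein that keeps methylation at imprinted regions, was listed at 0 in all KG-1 and OCI-AML3 libraries and reached 2.16 at most in SKM-1, against 194 to 285 in the MOLM lines.

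Ligands and a stem-cell factor were in the same group. GAS6, the ligand of the receptor kinases AXL, TYRO3 and MERTK, ran from 1246 to 1796 (median 1585) in the 6 MOLM libraries and from 5.38 to 41.9 (median 10.1) in the 9 others, and AXL itself averaged 176 ± 7.32 in MOLM-13 and 299.9 ± 25.2 in MOLM-14, against 121 ± 33.7 in OCI-AML3 and under 10 in KG-1 and SKM-1 (SD, n = 3). EFNA5, a membrane-bound ligand of ephrin receptors, ran from 694 to 1599 (median 1177) in the 6 MOLM libraries and from 1.57 to 21.1 (median 7.61) in the 9 others. ZNF521, a zinc finger cofactor of blood stem cells, was at 3616 ± 202 and 2568 ± 417 in the MOLM lines and at 320.2 ± 107 in KG-1, the highest of the others. APOC2, the activator of lipoprotein lipase, RUBCNL, a regulator of autophagy, VAT1L and MIR1915HG completed the 12 largest positive differences, which lay between 6.53 and 7.56. All 12 had no overlap between the 6 and the 9 libraries, which follows largely from their choice as the largest differences among separated genes. Of all tested genes 1668 (8.25%) had no overlap, 896 of them (4.43%) in the higher direction. VAT1L had the least uniform comparison group: OCI-AML3 stood at 273 ± 99, KG-1 and SKM-1 below 10.

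The genes with the largest negative differences were expressed in all 3 other lines and low in both MOLM lines, which follows largely from their choice among separated genes. PARD3, a scaffold of cell polarity, ran from 0 to 2.65 (median 1.31) in the 6 MOLM libraries and from 189 to 1321 (median 1077) in the 9 others, a difference of -8.32 ± 0.24 (SE), limma adjusted p = 1.07e-11. RETREG1, a receptor for autophagy of the endoplasmic reticulum, ran from 0 to 9.14 (median 2.17) in the 6 MOLM libraries and from 149 to 1454 (median 437) in the 9 others. KLF12, a transcriptional repressor, and GNAI1, an inhibitory G protein subunit, differed by -7.49 ± 0.45 and -7.36 ± 0.51 (SE). Both were above 300 in every library of the other lines and below 20 in every MOLM library. ERG, an ETS factor of stem cells and endothelium, was graded among the other lines: 3532 ± 284 in KG-1, 318 ± 28.6 in OCI-AML3 and 27 ± 9.85 in SKM-1, against 0.189 ± 0.327 and 6.47 ± 6.94 in MOLM-13 and MOLM-14 (SD, n = 3). TRPS1, a GATA-type repressor, was graded too, with 28578 ± 429.5 in KG-1 and 322 ± 20.2 in OCI-AML3, and MOLM-14 kept 97.5 ± 79.5. The histone gene H2BC10, the actin regulator WASF3, PROSER1 and TCEAL4 had differences of -7.32, -7.02, -7.30 and -7.01. RPS2P5 had the most negative difference of all (-9.19 ± 0.62), but it is a processed pseudogene that can share reads with RPS2, so its level is uncertain. In the lower direction 772 genes (3.82%) had no overlap between the libraries of the 2 sides.

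**Figure D1:**
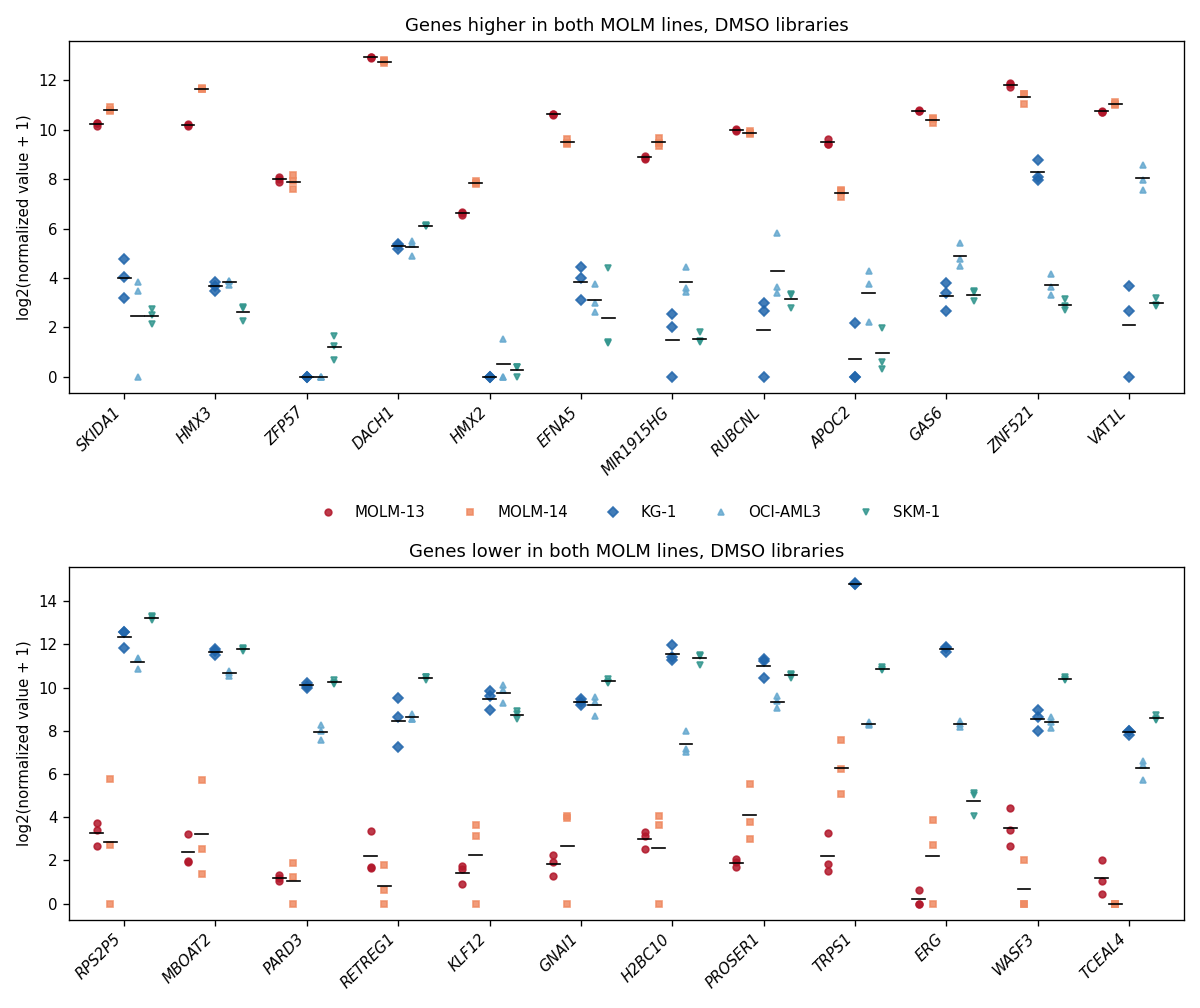
Value of every DMSO library, as log2(normalized value + 1), for the 12 genes with the largest positive (top) and negative (bottom) differences among genes called in all 6 line pairs; points are libraries, 3 per line, and black bars are line means. In the top panel the red and orange points of the MOLM lines sit above all others, and in the bottom panel they sit below, with VAT1L, ZNF521, ERG and TRPS1 showing 1 line of the comparison group nearest to them.

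HOXA genes, the textbook targets of KMT2A fusions, were higher on average. Of the 11 HOXA genes tested, 7 were higher, none was lower and 4 were not called (23.6% of all tested genes were higher and 28.7% lower), with a median difference of 0.92 against -0.093 over all tested genes, and 0 of them were separated. As only 6.42% of all genes were separated, a count of 0 in a list of this size is near that share. HOXA9, the central HOX gene of this leukaemia class, averaged 2519 ± 115 in MOLM-13 and 1316 ± 133 in MOLM-14, and 2155 ± 204 in KG-1, 1091 ± 106 in OCI-AML3 and 1030.3 ± 34.9 in SKM-1 (SD, n = 3). MOLM-13 was highest and KG-1 second, above MOLM-14, so that the 2 sides overlapped. The difference was 0.44 ± 0.066 (SE), limma adjusted p = 7.38e-05, and it was 1.29 within the deep pair and -0.22 within the less deep set. HOXA10 was highest in OCI-AML3 (1649 ± 81.9) and MOLM-14 (1145 ± 117) and was not called (-0.11 ± 0.065, limma adjusted p = 0.167).

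The order of the lines changed along the cluster. HOXA11 was at 238 ± 24 in MOLM-13, 304 ± 63.2 in MOLM-14 and 433 ± 11.9 in OCI-AML3, but near 1 in KG-1 and SKM-1. HOXA13 had the same order, with 4002 ± 207 in OCI-AML3 above 2959.8 ± 213 in MOLM-14 and 364 ± 13.4 in MOLM-13. At the other end, HOXA3, HOXA5 and HOXA6 were lowest in SKM-1: HOXA3 stood at 4.85 ± 0.252 there and between 90.7 and 294 in the other 4 line means. HOXA7 was low in OCI-AML3 alone (41.3 ± 7.91), and without that line its difference was -0.10. For HOXA3 the call was lost when SKM-1 was left out, as it was for HOXA5 and HOXA6.

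HOXB genes went the other way. Of 8 tested, 0 were higher and 6 were lower, against 23.6% and 28.7% of all tested genes, with a median difference of -3.05; 0 were separated, where 3.08% of all genes were separated and lower. HOXB3 averaged 600.5 ± 152 in OCI-AML3 and 111 ± 3.65 in SKM-1 and stood below 20 in KG-1 and below 10 in both MOLM lines. HOXB4 was at 189.7 ± 24.4 and 177 ± 10.5 in the same 2 lines, HOXB6 was high in OCI-AML3 (237 ± 50.6), and HOXB2 was highest in KG-1 (444 ± 61.7).

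Of the HOX cofactors, PBX3 was the one that separated the lines. It ran from 1688 to 2355 (median 2172) in the 6 MOLM libraries and from 352 to 919 (median 433) in the 9 others, a difference of 2.11 ± 0.11 (SE), limma adjusted p = 4.83e-09, with 2.30 in the deep pair and 2.00 in the less deep set. MEIS1 was called as well (2.69 ± 0.20, SE), but its call rested on 1 line. SKM-1 stood at 7.1 ± 3.84, whereas KG-1 at 3669 ± 903 was above both MOLM-13 at 2086 ± 186 and MOLM-14 at 2280.4 ± 639.7. Without SKM-1 its difference was -0.050. MEIS2 was high in MOLM-14 (2278 ± 222) and SKM-1 (986 ± 72.4) and lowest in MOLM-13 (216 ± 17), and the difference of MEIS2 was 0.81, with -2.19 in the deep pair. MEIS3 was lower (-0.96), being highest in OCI-AML3, with 1.33 in the deep pair. In all, 3 of 8 cofactors were higher and 2 lower, and 23.6% and 28.7% of all genes were.

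**Figure D2:**
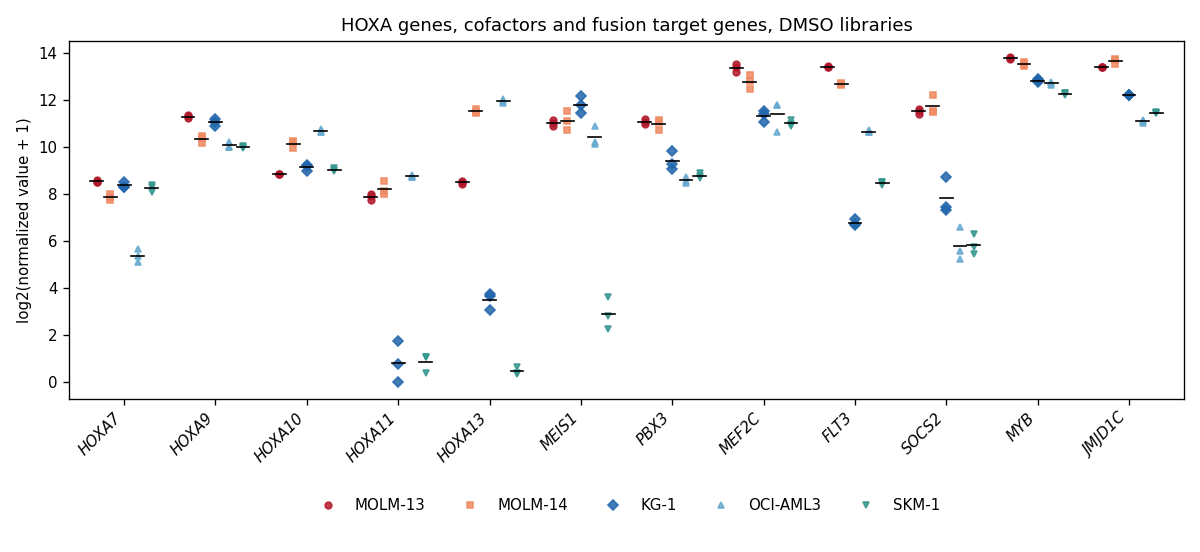
Value of every DMSO library, as log2(normalized value + 1), for HOXA genes, the cofactors MEIS1 and PBX3, and fusion target genes; points are libraries, 3 per line, and black bars are line means. HOXA9, HOXA10 and MEIS1 overlap between the MOLM lines and the others, HOXA11 and HOXA13 are high in both MOLM lines and OCI-AML3, and PBX3, MEF2C, FLT3, SOCS2, MYB and JMJD1C are highest in the 2 MOLM lines.

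The wider list of KMT2A fusion targets had 27 of 37 tested genes higher and 3 lower (EYA1, MECOM and HMGA2), against 23.6% and 28.7% of all tested genes, with a median difference of 0.94. HMGA2 had the opposite sign in the less deep set (2.38). Of the 37 genes 8 were separated, all higher, as were 3.34% of all genes: PBX3, MEF2C, JMJD1C, MYB, FLT3, CPEB2, ZNF521 and SOCS2. MEF2C, a MADS-box factor of lymphoid and monocytic cells, ran from 5675 to 11799 (median 9078) in the 6 MOLM libraries and from 1607 to 3519 (median 2290.1) in the 9 others, a difference of 1.84 ± 0.17 (SE), limma adjusted p = 6.79e-07. JMJD1C, a histone demethylase of the KDM3 family, ran from 10913 to 13697 (median 11493) in the 6 MOLM libraries and from 2123 to 4767 (median 2833) in the 9 others. MYB, a factor of progenitor proliferation, was higher in every MOLM library (11106 to 14709) than in any other (4823 to 7716), but by a smaller amount (1.06 ± 0.042, SE). CPEB2, a translational regulator, differed by 2.07 ± 0.26. CDK6, a cell cycle kinase and known target, was called higher (0.87 ± 0.084) with SKM-1 low (2888 ± 110.4). KG-1 had the highest level (32139 ± 4664), and without SKM-1 the difference was -0.092, as it was -0.12 within the less deep set. PROM1, the stem-cell antigen CD133, stayed below the filter.

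Of 20 tested genes that encode the fusion's parts, its partners and their cofactors, 4 were higher and 5 lower, near the 23.6% and 28.7% of all tested genes. KMT2A itself was not called (0.38 ± 0.31, limma adjusted p = 0.318): 1 MOLM-14 library stood at 18529.9 and the other 2 at 3174 and 4139, and without it the difference was -0.0092. That library is the shallowest of its line. MLLT3 was not called either (-0.061 ± 0.17, limma adjusted p = 0.789) and was highest in KG-1 (5348 ± 241). A gene table cannot tell reads of a fusion from reads of the intact genes. DOT1L, the H3 lysine 79 methyltransferase that fusions recruit, was separated with a small difference: it ran from 2179 to 3226 (median 2592) in the 6 MOLM libraries and from 1660.0 to 2022 (median 1769.6) in the 9 others, that is 0.55 ± 0.057 (SE), limma adjusted p = 2.28e-06. MLLT10, a DOT1L cofactor and fusion partner, was separated too (1.22 ± 0.14). ELL2, an elongation factor, and PSIP1, the chromatin tether of the KMT2A complex, were lower (-2.52 and -0.52), and neither was separated. Within the less deep set PSIP1 was at 0.077, the opposite sign.

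Polycomb genes, whose products maintain gene silencing, were split, with 6 of 20 higher and 9 lower (23.6% and 28.7% of all genes), and 2 and 4 were separated (3.34% and 3.08%). BMI1, a subunit of the complex that ubiquitinates histone H2A, ran from 10791 to 20917 (median 13555) in the 6 MOLM libraries and from 746 to 6723 (median 1204) in the 9 others, a difference of 2.94 ± 0.12 (SE), limma adjusted p = 2.27e-10, and KG-1 was the nearest of the other lines (5579 ± 1108). CBX8, a reader of the same complex, was separated and higher (1.21 ± 0.17). PHF19, EED, PHC2 and ASXL1 were separated and lower, with differences from -1.12 to -0.43. PHC1 and PCGF2 were lower on average (-2.79 and -2.37) without being separated.

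BMI1, MLLT10 and 2 of the 12 leading genes lie in 1 stretch of chromosome 10. SKIDA1 (chr10:21513478-21526368, minus strand, GRCh38) lies next to MIR1915HG (chr10:21492658-21497262) and overlaps the first part of MLLT10 (chr10:21524675-21743630, plus strand). Of the 14 tested genes that start within 1 Mb of SKIDA1, 13 were higher in the MOLM lines, 0 were lower and 10 were separated, against 23.6% and 3.34% of all tested genes. DNAJC1, which encodes a chaperone of the endoplasmic reticulum, ran from 3374 to 4223 (median 3639) in the 6 MOLM libraries and from 334 to 1779 (median 599) in the 9 others, and differed by 2.38 ± 0.069. COMMD3 differed by 2.39 ± 0.22, and its libraries overlapped between the 2 sides. SPAG6, a gene of the sperm flagellum, was not separated, and KG-1 was as high as MOLM-14. In BMI1, COMMD3 and SPAG6 KG-1 was the nearest of the other lines, and in SKIDA1 and MIR1915HG all 3 others were low. COMMD3, BMI1 and their readthrough COMMD3-BMI1 share sequence, and whether counting used strand is not given in the sources used here, so their split is uncertain. The window was chosen after these values were seen.

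**Figure D3:**
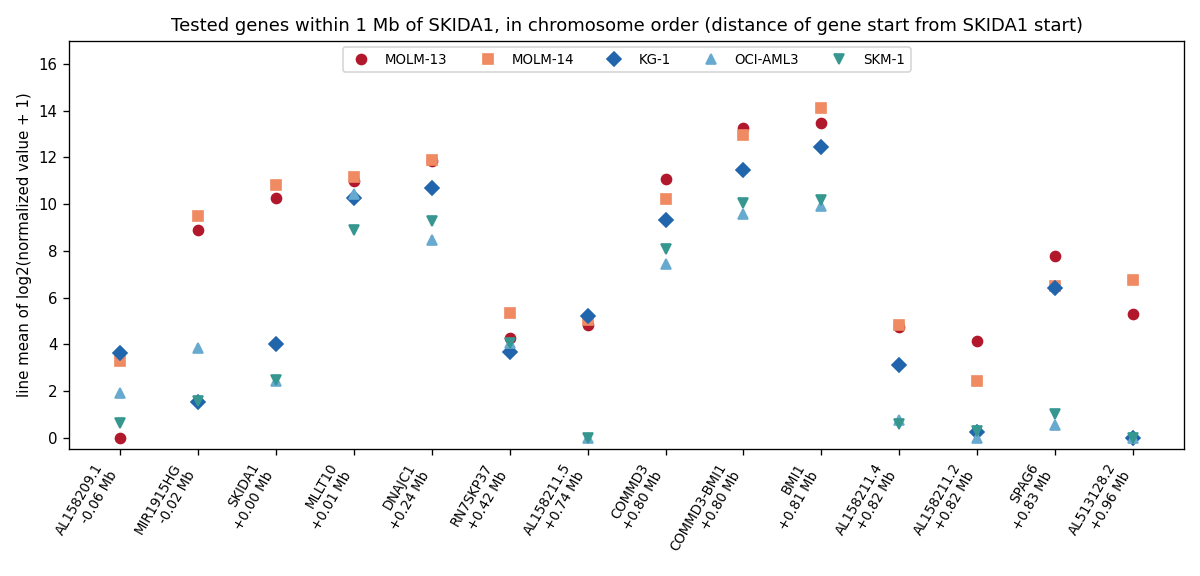
Line means of log2(normalized value + 1) for the 14 tested genes that start within 1 Mb of SKIDA1, in chromosome order, with the distance of each start from that of SKIDA1 in Mb. The red and orange points of the MOLM lines are the highest for the 10 separated genes, with mean differences of 7.56 for SKIDA1 and 6.90 for MIR1915HG and of 1.22 to 2.94 for the protein-coding genes from MLLT10 to BMI1.

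FLT3, the receptor kinase of early progenitors that is mutated in both MOLM lines, was among the clearest single genes. It ran from 6447 to 11083 (median 8785) in the 6 MOLM libraries and from 101 to 1689.8 (median 362) in the 9 others, with line means of 10980.2 ± 113 in MOLM-13, 6561 ± 136 in MOLM-14, 109 ± 10.9 in KG-1, 1622 ± 59.3 in OCI-AML3 and 357 ± 15.1 in SKM-1 (SD, n = 3). The difference was 4.41 ± 0.052 (SE), limma adjusted p = 3.85e-15. Of 21 tested genes of FLT3 and STAT5 signalling, 14 were higher, 2 were lower and 4 were separated, all higher, with a median of 0.93, where 23.6% of all genes were higher, 28.7% lower and 3.34% separated and higher. SOCS2, a feedback inhibitor induced by STAT5, ran from 2765 to 4838 (median 2976) in the 6 MOLM libraries and from 36.7 to 425 (median 77.3) in the 9 others, a difference of 5.15 ± 0.26 (SE), limma adjusted p = 2.21e-09. SOCS1, a second inhibitor, and PIM2, a survival kinase, differed by 2.88 ± 0.21 and 0.73 ± 0.11. CCND2, a D-type cyclin, was about as high in KG-1 (10996 ± 2119) as in MOLM-14 (11540.1 ± 1828) and low in OCI-AML3 and SKM-1. EGR1, an immediate early factor, was high in MOLM-13 (753 ± 92.7) and not in MOLM-14 (63.2 ± 21.2). FLT3 and SOCS2 are members of the fusion target list as well, so the lists are not separate evidence.

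Other cytokine receptors were mixed, with 9 of 20 higher and 5 lower (23.6% and 28.7% of all genes). IL3RA, the interleukin 3 receptor alpha chain, ran from 541 to 1023 (median 783) in the 6 MOLM libraries and from 52.4 to 159 (median 85.2) in the 9 others, a difference of 3.13 ± 0.13 (SE), limma adjusted p = 5.18e-10, while CSF2RB, the beta chain with which it signals, was separated in the lower direction (-1.96 ± 0.097). CSF2RA was higher by 2.38, with SKM-1 near the MOLM lines at 486 ± 59.1. KIT, the stem cell factor receptor, was below 10 in both MOLM lines and in OCI-AML3 and was high in SKM-1 (2689.8 ± 53.2) and KG-1 (587 ± 119.9).

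The list of amino acid uptake, serine metabolism and amino acid response genes held the largest share of separated members among the 35 lists. It includes regulators such as TRIB3, ATF5 and DDIT3, so its counts are not of metabolic genes alone. Like the other lists, it was chosen with earlier results of these data known. Of 25 genes tested, 22 were higher, 1 was lower (MTHFD1) and 15 were separated, all higher, where 23.6% of all genes were higher and 3.34% separated in that direction, with a median difference of 1.54. The 3 enzymes of serine synthesis were all separated. PHGDH, which commits glycolytic carbon to the pathway, ran from 2914 to 3544 (median 3233) in the 6 MOLM libraries and from 438 to 1931 (median 1308) in the 9 others, a difference of 1.53 ± 0.13 (SE), limma adjusted p = 3.51e-07. PSAT1, the aminotransferase of the second step, ran from 5550.1 to 7663 (median 7059) in the 6 MOLM libraries and from 853 to 2054 (median 1572) in the 9 others, a difference of 2.27 ± 0.073. PSPH, the final phosphatase, differed by 1.87 ± 0.070. The mitochondrial folate enzymes SHMT2 and MTHFD2 were separated (1.76 ± 0.059 and 1.11 ± 0.066), and the mitochondrial folate dehydrogenase ALDH1L2 had the largest mean difference of the list (4.54 ± 0.60) but was not separated, with KG-1 at 21.2 ± 21.5 and OCI-AML3 at 2667 ± 46.1. The cytosolic enzymes did not follow: SHMT1 was not called, and MTHFD1 was the member called lower (-0.23, with 0.29 in the deep pair).

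ASNS, asparagine synthetase, ran from 4037 to 7172 (median 5831) in the 6 MOLM libraries and from 209 to 2606 (median 1215) in the 9 others, a difference of 2.67 ± 0.099 (SE), limma adjusted p = 1.3e-10. TRIB3, a pseudokinase induced in the amino acid response, ran from 741 to 1310.2 (median 1061) in the 6 MOLM libraries and from 57.6 to 132 (median 115) in the 9 others, and ATF5 and DDIT3, bZIP factors of the same response, differed by 2.60 ± 0.12 and 2.13 ± 0.13. ATF4, the factor that drives this response mostly through translation of its mRNA, was higher by 0.78 and was not separated, since SKM-1 (6506 ± 378) was above MOLM-14 (6176 ± 85.7). The transporters SLC7A11, SLC1A5, SLC7A5 and SLC38A2 were separated with differences of 1.63, 1.23, 1.25 and 1.10, as were BCAT1, which transaminates branched-chain amino acids (1.82 ± 0.069), and PYCR1, an enzyme of proline synthesis (1.16 ± 0.13). SKM-1 was the nearest of the other lines for PHGDH, PSAT1, PSPH, SHMT2, MTHFD2, ASNS, SLC7A5 and BCAT1, and OCI-AML3 for TRIB3, ATF5 and DDIT3. For PHGDH, PSAT1 and ASNS the difference was 0.94, 1.99 and 1.45 in the deep pair and 1.77, 2.33 and 3.14 in the less deep set.

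The promoters of this list were searched for the amino acid response element to which ATF4 binds. The search used the letters TGATGNAA on either strand in the 250 bases before each RefSeq start. Of the 25 genes, 19 had at least 1 window, and 6 of these 19 (31.6%) held a match: ASNS, BCAT1, CHAC1, GOT1, MTHFD1L and SLC1A5. GOT1 was called higher but was at -0.15 in the deep pair. Over all tested genes with a window, 313 of 12170 (2.57%) held one, and 3.14% of all 35116 windows did. Of the 26 genes with a window in the list of fusion targets, which was searched for comparison, 3 (11.5%) held one as well: HOXA3, IGF2BP2 and MEF2C. A match is a string of letters and not a measured site. The amino acid list holds known genes of the amino acid response, so its share of matches can follow from how the list was made. It is no result about the MOLM lines, and a part of ATF4 in their difference was not tested. Windows of the 3 separated genes among the 6 are shown on GRCh38.p14, with the match in capitals.
ASNS (chr7:97872409-97872658, minus strand): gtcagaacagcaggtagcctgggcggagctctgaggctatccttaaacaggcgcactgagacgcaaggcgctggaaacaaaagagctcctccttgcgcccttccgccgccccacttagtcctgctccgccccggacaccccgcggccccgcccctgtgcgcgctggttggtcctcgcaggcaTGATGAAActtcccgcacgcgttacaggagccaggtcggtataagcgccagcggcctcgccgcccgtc
SLC1A5 (chr19:46784815-46785064, minus strand): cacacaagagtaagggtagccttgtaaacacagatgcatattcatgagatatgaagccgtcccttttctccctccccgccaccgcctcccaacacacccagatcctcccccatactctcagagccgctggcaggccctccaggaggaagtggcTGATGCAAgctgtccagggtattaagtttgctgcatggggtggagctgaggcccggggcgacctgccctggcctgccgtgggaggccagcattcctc
BCAT1 (chr12:24949102-24949351, minus strand): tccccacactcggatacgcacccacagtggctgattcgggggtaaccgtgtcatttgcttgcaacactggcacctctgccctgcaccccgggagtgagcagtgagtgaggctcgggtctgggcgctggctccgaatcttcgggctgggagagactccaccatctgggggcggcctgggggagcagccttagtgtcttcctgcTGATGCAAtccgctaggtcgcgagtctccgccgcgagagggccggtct
The match begins 68 bases before the start in ASNS, 97 in SLC1A5 and 48 in BCAT1. RefSeq gives these 3 genes 2, 3 and 5 starts, and the window shown is the first with a match. The same search for TGATTNAT, the composite site of PBX and HOX proteins, found 0 matches in the windows of the 26 fusion target genes that had one and 0 in those of the 19 amino acid genes. It is rare, in 2.03% of the tested genes with a window and 2.48% of all windows, so a count of 0 in lists of this size is near that share.

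**Figure D4:**
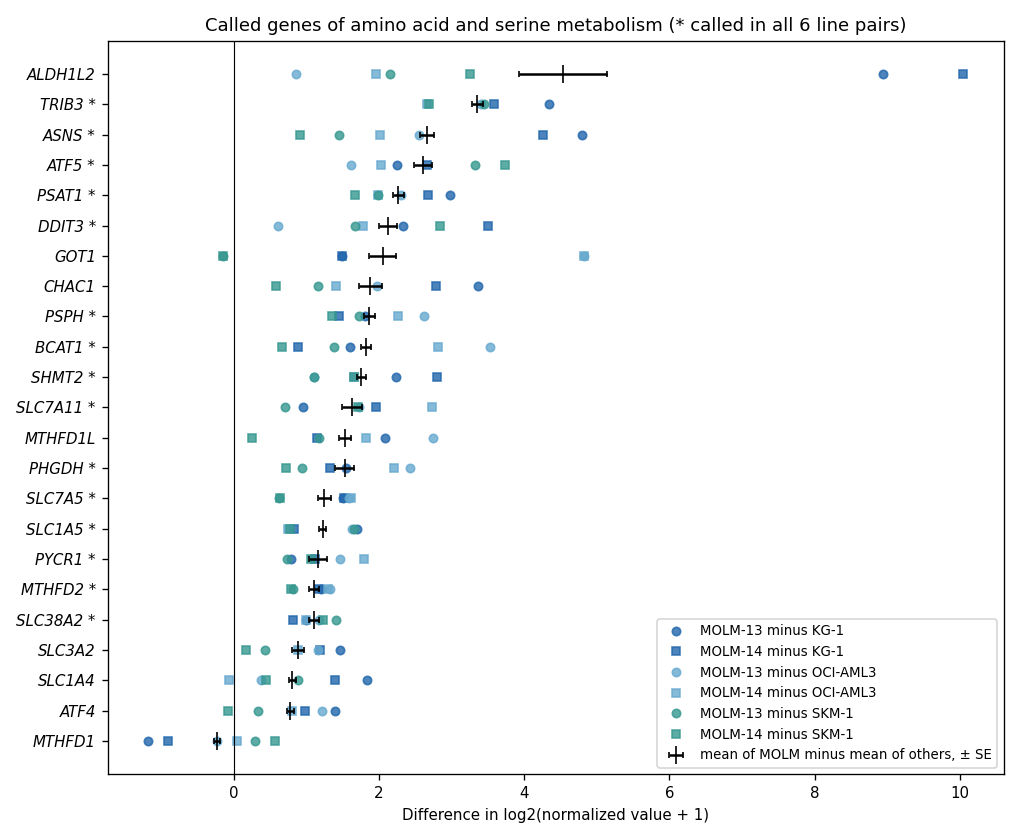
Difference in log2(normalized value + 1) between each MOLM line and each other line for the 22 genes of the amino acid and serine list called higher and the 1 called lower; colours give the other line, circles are MOLM-13 and squares MOLM-14, and black ticks are the mean difference with its SE. All 6 points lie to the right of 0 for the 15 separated genes, marked with an asterisk, and MTHFD1, the gene called lower, spreads to both sides.

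Targets of p53 were higher as a group. Of 24 tested, 19 were higher, 0 were lower and 5 were separated (CDKN1A, MDM2, FAS, SESN2 and CCNG1), with a median of 0.79, where 23.6% of all genes were higher, 28.7% lower and 3.34% separated and higher. CDKN1A, the cell cycle inhibitor p21, ran from 2955 to 3537 (median 3358) in the 6 MOLM libraries and from 6.15 to 392 (median 367) in the 9 others, a difference of 4.82 ± 0.14 (SE), limma adjusted p = 1.28e-11. KG-1 was lowest at 11.3 ± 4.48, and OCI-AML3 and SKM-1 were alike at 384 ± 12.9 and 364 ± 18.4. MDM2, a ubiquitin ligase of the same pathway, was separated (1.52 ± 0.057), with OCI-AML3 nearest at 6115 ± 317. SESN2, a stress sensor that is also an amino acid sensor, differed by 1.68 ± 0.079. BBC3, the death gene PUMA, and PHLDA3 were higher on average (2.32 and 3.99) without being separated, and OCI-AML3 was the nearest of the other lines in both. GDF15 was low throughout, with line means of 14.4 or less.

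Regulators of apoptosis and of the G1 phase leaned the same way. In the BCL2 family 8 of 15 genes were higher and 2 lower, against 23.6% and 28.7% of all genes. BCL2 was higher by 0.94 ± 0.090, but OCI-AML3 (6467 ± 999) stood above MOLM-14 (5544 ± 1006). BIK, a BH3-only death gene, was the 1 separated member, at 118 to 205 in the MOLM libraries and 0 to 24 in the others. A count of 1 in a list of this size is near the 3.34% of all genes that were separated and higher. HRK was highest in SKM-1 (291 ± 16.2), so that its mean difference of 2.41 was -3.87 within the deep pair. Of 20 G1 regulators 13 were higher and 3 lower, against the same shares, and 3 and 2 were separated (3.34% and 3.08% of all genes). The separated ones were CDKN1A, the inhibitor CDKN2C (1.88 ± 0.054) and RB1 (1.18 ± 0.054) in the higher direction, and CDKN2A (-5.09 ± 0.32) and E2F1 (-0.83 ± 0.079) in the lower. CDKN2A, which encodes p16 and ARF, stood at 0.772 ± 0.391 and 1.58 ± 1.46 in the MOLM lines and at 22.4 ± 6.46, 36.7 ± 16.5 and 374 ± 32.3 in OCI-AML3, KG-1 and SKM-1. CCND1 was highest in OCI-AML3.

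Mitotic genes were lower by small amounts. Of 25 tested, 21 were lower (28.7% of all genes were), 1 was higher (23.6%) and 4 were separated (TOP2A, TPX2, NUSAP1 and CDC20, all lower, as were 3.08% of all genes), with a median of -0.47. TOP2A, the topoisomerase of chromosome condensation, ran from 11306 to 14458 (median 13242) in the 6 MOLM libraries and from 15459 to 28651 (median 17426) in the 9 others, a difference of -0.63 ± 0.044 (SE), limma adjusted p = 5.78e-08. TPX2, a spindle assembly factor, differed by -0.53 ± 0.045, and BIRC5, CENPA and CENPE by -0.82, -0.86 and -0.75. UBE2C was the member called higher (2.34 ± 0.16), and SKM-1 stood apart at 8.06 ± 2.94. Replication genes moved less: 3 of 25 were higher and 10 lower, with a median of -0.21 and 0 separated, and MCM2, GINS2 and FEN1 were lower (-0.69, -0.68 and -0.68), whereas PRIM1 was higher by 0.83.

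Among 22 genes of cholesterol synthesis, 14 were lower and 3 higher (median -0.40), against 28.7% and 23.6% of all tested genes. Of the lower genes 1 was separated, a share near the 3.08% of all genes. SQLE, squalene epoxidase, was lower (-1.44 ± 0.084) and highest in KG-1, in which it averaged 10999 ± 981; within the deep pair its difference was 0.056. INSIG1 was higher, and SKM-1 was low (381 ± 14.8).

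Of 18 genes of DNA methylation, the process on which the study's drug acts, 6 were higher and 5 lower. These shares are near the 23.6% and 28.7% of all genes, and the 0 that were separated compare with 6.42% of all genes. DNMT3B was lower (-1.21), with KG-1 at 3907 ± 406 against 286 ± 22 in MOLM-13 and 322 ± 77.1 in OCI-AML3, and the call was lost without KG-1. TDG, a glycosylase of active demethylation, was higher by 0.90. ZBTB38, which binds methylated DNA, was low in MOLM-13 (7.2 ± 3.23), and DNMT3L was expressed in SKM-1 alone (40.6 ± 5.17). Of 41 cancer-testis and germline genes, which are often silenced by methylation, 12 reached the filter, 3 higher and 3 lower, also near the shares of all genes. CT45A1 was detected in MOLM-13 (53.9 ± 10.2) and listed at 0 in MOLM-14, TEX15 was high in MOLM-13 (5915 ± 376) and SKM-1 (1605 ± 92.1), DDX43 was high in SKM-1, and XAGE1B stayed below 20 in every line mean.

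Several genes of immune recognition and response were high in a single line of the comparison group. Of 30 interferon-stimulated genes 21 were lower and 2 higher (median -1.47), against 28.7% and 23.6% of all genes, and 2 were separated (3.08% of all genes were, in that direction). CMPK2 was separated: it ran from 167 to 222 (median 181) in the 6 MOLM libraries and from 471 to 7087 (median 1409) in the 9 others, a difference of -3.11 ± 0.070 (SE), limma adjusted p = 1.42e-12. IFITM2 was separated too (-2.09 ± 0.11). IFI6 was high in OCI-AML3 alone (1904 ± 279) and differed by 0.53 within the deep pair, IFITM1 in KG-1 alone (321 ± 100.3), and XAF1 was high in both MOLM lines and OCI-AML3. Within the deep pair the median of the list was 0.52, the opposite sign. For MHC class II, 9 of 12 genes were lower and 1 higher (median -1.24), but without KG-1 the median was 0.80. KG-1 held CD74, the invariant chain, at 3959 ± 503 and CIITA, the class II transactivator, at 3449.8 ± 132, against 1976 ± 140.1 and 207 ± 72.8 in MOLM-13. HLA-DPA1, HLA-DPB1, HLA-DOA and HLA-DRB5 were also highest in KG-1, and CD74 was called slightly higher in the MOLM lines (0.33 ± 0.088) with OCI-AML3 low; without OCI-AML3 the difference was -0.41. CIITA was not called (-0.61 ± 0.36, limma adjusted p = 0.169).

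In MHC class I, 8 of 15 genes were higher and 5 lower (23.6% and 28.7% of all genes). HLA-E and the trimming peptidase ERAP1 were separated and higher (0.69 ± 0.064 and 1.196 ± 0.099), and the peptide transporter TAP2 was separated and lower (-1.36 ± 0.15). HLA-B and HLA-C were as high in SKM-1 (24717 ± 1288 and 11021 ± 582) as in MOLM-13 (28082 ± 2765 and 10059 ± 389.7), and HLA-F was highest in SKM-1. Genes of this family are alike in sequence, and their counts can be split uncertainly. Of 19 targets of NF-kB 10 were lower (28.7% of all genes) and 4 higher (23.6%). TNFAIP3, the inhibitor A20, was separated and higher (2.15 ± 0.17), CXCL2 was separated and lower (-3.71 ± 0.43), CXCL3 was separated too but was listed at 0 in all 6 MOLM libraries and stayed low elsewhere. CXCL8 and IL1B were lower (-4.39 and -4.34), and TNF was at 401 ± 24, 321 ± 53.7 and 313 ± 44.8 in MOLM-13, MOLM-14 and OCI-AML3 and below 10 in KG-1 and SKM-1.

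Of 26 integrins and adhesion genes 12 were lower and 7 higher (28.7% and 23.6% of all genes), and 3 were separated, all lower (3.08%). CD44, the hyaluronan receptor, was lower in every MOLM library (-1.71 ± 0.071), with 2026 ± 33.1 in MOLM-13 and 3210.1 ± 399 in MOLM-14 against 6569 ± 668 in OCI-AML3, the nearest. ITGA4 differed by -0.91 ± 0.041 and ITGA9 by -5.82 ± 0.30. VCAN was high in OCI-AML3, and ITGA2 in OCI-AML3 and SKM-1.

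Markers of maturation did not place the MOLM lines at 1 end. Of 21 monocyte and macrophage genes 7 were higher, 8 lower and 0 separated, where 23.6%, 28.7% and 6.42% of all genes were. LYZ, lysozyme, was highest in SKM-1 (10795 ± 127), followed by MOLM-13 (7085 ± 288), OCI-AML3 (4120.1 ± 227) and MOLM-14 (3828 ± 234), and was low in KG-1 (610.4 ± 100). S100A9 and FCN1 were high in SKM-1 alone (6640.1 ± 784 and 2493 ± 35.3). CD14 stayed below the filter in all lines. MS4A7 and LILRB4 were high in both MOLM lines and OCI-AML3. Of 9 granulocyte genes tested 5 were higher, 3 lower and 1 separated, where 23.6%, 28.7% and 6.42% of all genes were. The separated one was AZU1: azurocidin ran from 6741 to 9168 (median 8029) in the 6 MOLM libraries and from 37.4 to 4776 (median 1895) in the 9 others, a difference of 3.36 ± 0.13 (SE), limma adjusted p = 1.41e-10. ELANE and PRTN3 were higher on average (3.79 and 2.44), CTSG was highest in OCI-AML3, and MPO, the myeloperoxidase gene, was high in SKM-1 alone (41753 ± 423) and below 500 in the other line means. RNASE2, an eosinophil granule ribonuclease, was separated (3.33 ± 0.11) with OCI-AML3 nearest, and RNASE3 was as high in OCI-AML3 as in MOLM-13.

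Stem and progenitor genes were lower on average. Of 12 markers 9 were lower and 0 higher (median -1.32), against 28.7% and 23.6% of all genes. ERG was the separated one, and a count of 1 in a list of this size is near the 3.08% of all genes. CD34 was high in KG-1 alone, at 29138 ± 1783; every other line mean was below 100, and without KG-1 the difference was 0.035. Of 21 transcription factors of stem cells, 15 were lower and 4 higher, against the same shares of all genes. MYB and MEF2C were separated and higher, and ERG and TCF4 (-2.44 ± 0.18) separated and lower, where 3.34% and 3.08% of all genes were. BCL11A was lowest in OCI-AML3, and MYCN, TAL1 and MLLT11 were highest in KG-1. Myeloid factors were mixed, with 12 of 24 higher and 9 lower (23.6% and 28.7% of all genes). NFIL3 was separated and higher (1.34 ± 0.085) and ID1 separated and lower (-2.75 ± 0.17). A count of 1 in each direction is near the 3.34% and 3.08% of all genes. IRF8 and RUNX2 were highest in OCI-AML3, and MAF was near 0 in both MOLM lines.

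Many markers of other lineages were low, but not all. Megakaryocyte genes ITGA2B, VWF and SELP were high in KG-1, and erythroid HBD reached 26.8 at most in a single library. EPOR was at a difference of 1.83. TFRC, the transferrin receptor, had no stable direction: its difference was -0.39, but 0.96 within the deep pair, 0.28 without KG-1 and 0.24 without MOLM-14. The mast cell and basophil genes MS4A2 and CPA3 were lower (-4.56 and -2.93), MS4A2 separated. The pan-myeloid aminopeptidase ANPEP (CD13) and the signalling adaptor FCER1G were separated and lower (-5.67 ± 0.18 and -4.50 ± 0.36), while TYROBP was higher by 1.68 and CORO1A lower (-0.88). Among lymphoid markers, CD4, which monocytic cells also carry, was at 2118 ± 162 and 1319 ± 85.2 in the MOLM lines and 1349 ± 42.4 in OCI-AML3, CD3E and CD79B were highest in KG-1, and PAX5, the B-cell factor, was high in MOLM-14 alone (1090.2 ± 90.7). KRT18, a keratin, was separated (5.44 ± 0.49) and higher in MOLM-14 (351 ± 67) than in MOLM-13 (68.4 ± 5.37). KRT8 and ESRP1 were raised in MOLM-14 and EPCAM in SKM-1, and the fibroblast gene PDGFRB and the dendritic gene CD1C reached 28.8 and 51.8 at most in a single library.

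**Figure D5:**
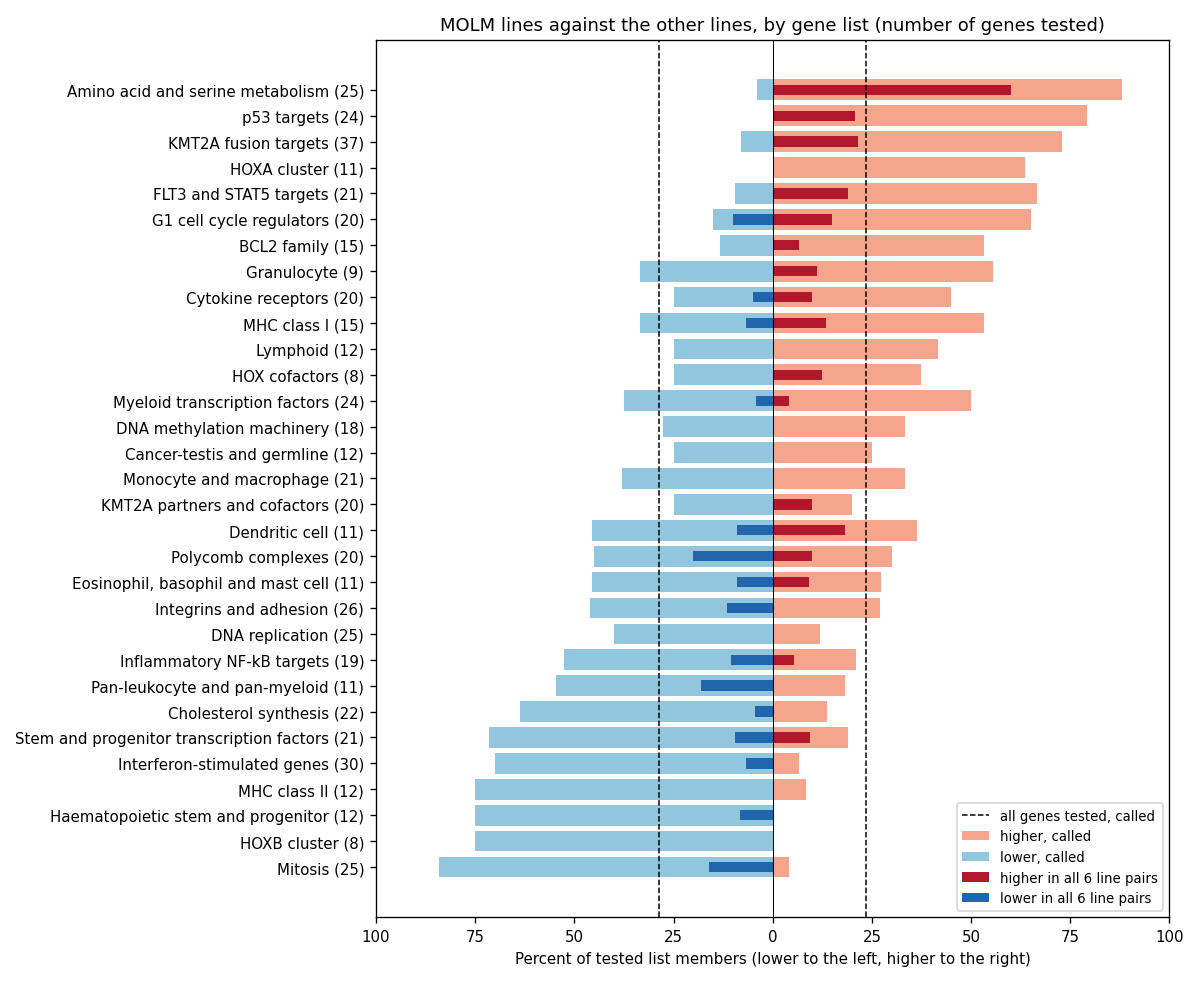
Percent of tested members of each gene list (number tested in parentheses; lists with at least 8) called higher (right) or lower (left) in the MOLM lines, pale, and called in all 6 line pairs, dark; dashed lines mark the 23.6% higher and 28.7% lower among all genes tested. The amino acid and serine list has the longest dark bar (15 of 25), and HOXA, MHC class II and HOXB genes have no dark bar.

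The 2 MOLM lines differed from each other in 7800 of the tested genes (38.6%), 3852 higher in MOLM-13 (19.1%) and 3948 in MOLM-14 (19.5%), and depth differs between them as well. PAX5 and ESRP1 were higher in MOLM-14 (MOLM-13 minus MOLM-14 -8.56 and -6.70). CT45A1 and TEX15 were higher in MOLM-13 by 5.76 and 5.34. Among fusion targets FLT3 was higher in MOLM-13 by 0.74 and MEF2C by 0.60, both far less than their difference from the other lines. HOXA13 and HOXA10 were higher in MOLM-14 (MOLM-13 minus MOLM-14 -3.02 and -1.29), whereas HOXA9 was higher in MOLM-13 by 0.94. DACH1, ZFP57, RUBCNL and PBX3 differed between the MOLM lines by less than 0.2.

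The same lines after decitabine (100 nM, given on days 0, 1 and 2, RNA at 72 h) gave a second set of 15 libraries of the same cells. There 10964 of 22168 tested genes (49.5%) were called between the MOLM lines and the others, 21.3% higher and 28.2% lower, and 1331 (6%) were separated, 2.63% higher and 3.37% lower. Of the 1298 genes separated under DMSO, 1297 kept their sign, 1281 were called and 840 were separated. DACH1 differed by 6.94 in the decitabine libraries, MBOAT2 by -9.33, PBX3 by 2.00 and SOCS2 by 5.09, all of the same sign as under DMSO. The difference between the 2 treatments was itself called for 785 genes (3.54%; 0.862% upward and 2.68% downward), TRIB3 and ASNS among them: TRIB3 went from 3.36 to 1.79 and ASNS from 2.67 to 1.79. These libraries come from the same lines and do not add an independent case of KMT2A rearrangement.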

How the data were processed

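Per the labels' protocols, cells were seeded in duplicate or triplicate wells, and stranded libraries were made from rRNA-depleted total RNA with a SMARTer kit and read as single ends. The tools DESeq2, limma, featureCounts, STAR and Salmon 1.2.1 and the build hg38 are named, without roles, in the submitters' processing notes. The deposited values are a signal per gene: estimated counts divided by the authors' DESeq2 normalization factors, per the name they gave the table. Whole reads could not be recovered (45.0% to 68.5% of low values were whole within 0.02 of a step), so no count model was run, and depth was estimated from that step. Each column name gives a line, a letter and a replicate number, and was tied to 1 library with u read as DMSO and t as decitabine. The labels pair these letters with the treatments for MOLM-13 and SKM-1 only. The same reading was carried over to MOLM-14, KG-1 and OCI-AML3. The 12 HL-60 columns were not used, and THP-1 and OCI-AML2 (12 libraries) were not analysed here. Names and GRCh38 coordinates came from GENCODE 29, which matched 58064 of 60240 genes.

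Values were fitted as log2(value + 1) with limma 3.58.1 in R 4.3.3 (trend and robust on, 1 mean per line, 10 residual degrees of freedom, genes at 10 or more in at least 3 libraries). The contrast was the mean of the 2 MOLM line means minus the mean of the 3 others, with Benjamini-Hochberg adjustment over all genes. Replicates may be wells of 1 culture, so p-values measure the spread between libraries. With 2 lines against 3, an exact test over lines cannot go below p = 0.2 (two-sided). Scripts were tested on simulated data. The simulated libraries shared a common level per gene, apart from genes changed in the MOLM lines. They cannot show how the calls behave when single lines differ for other reasons. The members and the gene lists were chosen with earlier results of these data known. Genes named are the 12 largest separated differences in each direction, up to 4 called members of each list with the largest differences, and a fixed set of fusion targets and markers; other separated list members and the neighbours of SKIDA1 were named after their values were seen. Promoters came from RefSeq (GRCh38.p14), which matched 955 of the 1298 separated genes and 121 of the 160 genes named by that rule. Levels of Y-linked genes and of a few genes that the rule names are not reported here.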

Additional observations from a re-analysis of the deposited data

Results flagged for a closer look

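For 19 of the genes named, the difference between the MOLM lines and the others was not the same in the decitabine libraries as in the DMSO libraries, by an interaction term in limma over all 30 libraries (785 of 22168 genes were called, 3.54%). In each of the following the positive difference under DMSO was smaller after decitabine. For TRIB3 the change was -1.56, from 3.36 to 1.79 (limma adjusted p = 1.16e-08). UBE2C changed by -1.67, from 2.34 to 0.67 (limma adjusted p = 4.24e-06). For CT45A1 the change was -2.43, from 2.78 to 0.35 (limma adjusted p = 1.32e-05). RNASE2 changed by -0.98, from 3.33 to 2.35 (limma adjusted p = 0.000565). For APOC2 the change was -2.60, from 6.77 to 4.17 (limma adjusted p = 0.00158). KRT18 changed by -2.79, from 5.44 to 2.65 (limma adjusted p = 0.0034). For FLT3 the change was -0.35, from 4.41 to 4.06 (limma adjusted p = 0.00883). KRT8 changed by -2.79, from 2.60 to -0.18 (limma adjusted p = 0.0102). For ASNS the change was -0.87, from 2.67 to 1.79 (limma adjusted p = 0.0131). ATF5 changed by -0.65, from 2.60 to 1.96 (limma adjusted p = 0.0155). For TNF the change was -1.41, from 4.48 to 3.07 (limma adjusted p = 0.0155). ZFP57 changed by -1.15, from 7.55 to 6.39 (limma adjusted p = 0.0391). For XAF1 the change was -0.68, from 3.15 to 2.46 (limma adjusted p = 0.0423). 

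The other genes moved in other ways. PRTN3 had a larger positive difference, a change of 1.00 from 2.44 to 3.43 (limma adjusted p = 0.0057). PSIP1 had a more negative difference, a change of -0.48 from -0.52 to -0.9998 (limma adjusted p = 0.00594). HLA-DPA1 had a more negative difference, a change of -1.57 from -3.25 to -4.82 (limma adjusted p = 0.00698). IFI6 had a less negative difference, a change of 0.78 from -2.56 to -1.77 (limma adjusted p = 0.0125). BIRC5 had a more negative difference, a change of -0.47 from -0.82 to -1.29 (limma adjusted p = 0.0135). ITGA2B had a more negative difference, a change of -1.16 from -3.46 to -4.62 (limma adjusted p = 0.0471). Each of these compares the response of 2 sister lines with that of 3 other lines, over 3 libraries per line and treatment.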

How the results depend on the processing

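The alternatives changed the pseudocount, the filter, the scaling, the weights and robust estimation, or left out libraries and whole lines; the mean of the within-set differences was chosen after seeing the data. Of 182 genes followed, 157 never changed sign. Of the 49 settings, those that left out a decitabine library followed counts and no single genes. The line as the unit, robust estimation off, the replicate block and the spread from all 30 libraries leave the difference itself unchanged. Of the 1298 separated genes, 84.9% to 99.6% were kept under the settings that change the processing of all 15 libraries. With the line as the unit, 1 gene was higher and 3 lower, and 175 of the followed genes lost their call. Fewer lines make fewer pairs, so more genes meet the rule of all pairs: leaving out SKM-1 gave 1132 separated higher genes, KG-1 gave 1093 and 1218 lower, OCI-AML3 gave 1275 and 1480, MOLM-13 gave 1195 and 1162, and MOLM-14 gave 1634 and 1787. MOLM-13 minus SKM-1 alone gave 5555 and 6668, and MOLM-14 minus KG-1 and OCI-AML3 alone gave 1539 and 1328, with 3590 genes called lower. Leaving out 1 library gave 4295 to 4819 genes higher, 5169 to 5889 lower, 566 to 721 separated higher and 539 to 673 separated lower. For the decitabine libraries it gave 4381 to 4842 and 5818 to 6329, and for MOLM-13 minus MOLM-14 2956 to 3839 and 3144 to 4093. Scaling without mitochondrial genes gave 3899 higher and 6917 lower, and quantile normalization 5663 and 5200.

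Libraries of the same replicate number went together weakly among MOLM-14, KG-1 and OCI-AML3, and not with MOLM-13 or SKM-1. Of 30 correlations of their deviations, 3 exceeded 0.1 (-0.044 to 0.15). These 3 are among the 9 within MOLM-14, KG-1 and OCI-AML3, which were all positive (0.055 to 0.15), and there each library correlated best with its own number in 18 of 18 comparisons, a hint from the data and not from the design. The second replicate is the shallowest library of each of these lines. The other 21 correlations, with MOLM-13 or SKM-1, ran from -0.044 to 0.050. With the replicate number as a block, 4827 genes were higher and 5866 lower, and 695 and 632 were separated.

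Signs reversed as follows, and the cause was not tested beyond the line left out. Without KG-1 the differences were 0.035 for CD34, 1.19 for CIITA, 0.087 for HLA-DRB5, -0.36 for LYZ, 1.38 for MLLT3 and 0.28 for TFRC. Without OCI-AML3 they were -0.41 for CD74, 0.42 for HOXA10 and -0.10 for HOXA7. Without SKM-1 they were -0.092 for CDK6, -0.050 for MEIS1, 1.29 for MPO and 0.33 for S100A9. Without MOLM-14 they were -2.36 for ESRP1, -0.34 for KMT2A, -0.89 for MEIS2, 0.36 for MEIS3 and 0.24 for TFRC. Without MOLM-13 they were 0.53 for HOXA10, -0.032 for HOXA9, 0.20 for MLLT3 and 0.21 for ZBTB38. MOLM-14 minus KG-1 and OCI-AML3 alone gave -0.014 for CD74, -0.12 for CDK6, 0.75 for HLA-F, 0.24 for HOXA10, -0.22 for HOXA9, -0.0026 for MEIS1, 0.62 for MPO, 0.077 for PSIP1, 0.78 for S100A9 and 0.23 for ZBTB38. MOLM-13 minus SKM-1 alone gave -0.13 for HLA-C, -3.87 for HRK, 0.53 for IFI6, -0.61 for LYZ, -2.19 for MEIS2, 0.28 for MLLT3, 0.056 for SQLE and 0.96 for TFRC. The mean of the within-set differences gave 0.033 for HOXA10 and 0.089 for MLLT3. KMT2A was at -0.080 with library weights, -0.0092 without the second MOLM-14 library, 0.63 without the first and -0.13 without the 3 shallowest libraries. MLLT3 was at 0.048 without that MOLM-14 library, 0.03 without the third OCI-AML3 library and -0.18 without the second. Of 35 list medians 17 changed sign under at least 1 setting; those of the amino acid, p53, KMT2A target, HOXA, HOXB, FLT3 and STAT5, mitosis and cholesterol lists did not. Library depth, down to 2.02 M reads, limits what can be said of low genes, and 5 lines limit what can be said of the class.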

Other observations

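The difference between the MOLM lines and the others was not spread evenly over the chromosomes, a pattern looked at after the gene values were seen and given as values. Median differences over the tested genes of a chromosome were largest on chromosome 13 (0.42, 380 genes), chromosome 12 (0.37, 1033 genes) and chromosome 6 (0.26, 1035 genes). On chromosomes 13 and 6 the median was positive in each of the 6 line pairs, from 0.28 to 0.65 and from 0.20 to 0.38. The same held for chromosome 19, from 0.034 to 0.43. On chromosome 12 it was -0.09 in 1 pair (MOLM-13 minus OCI-AML3). Of the genes of chromosome 13, 53 (13.9%) were separated and higher, against 3.34% of all tested genes, and DACH1, FLT3 and RB1 lie there. On chromosome 6 these were 93 genes (8.99%), on chromosome 12 they were 82 (7.94%), on chromosome 10 they were 43 (5.8%) and on chromosome 19 they were 77 (5.47%). The most negative medians were those of chromosome 4 (-0.29), chromosome 16 (-0.28) and chromosome 22 (-0.26). On chromosome 8 the median was positive for MOLM-13 against OCI-AML3 (0.43) and SKM-1 (0.48) and negative for MOLM-14 against both (-0.28 and -0.15). Chromosome copy number was not measured in these files.

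Separated genes that are neighbours and changed in 1 direction formed 20 runs of at least 3 tested genes. Beside the stretch around SKIDA1 and BMI1, the homeobox genes HMX3 and HMX2 and the mitotic checkpoint gene BUB3 formed such a run on chromosome 10 (chr10:123135962-123170467), as did JMJD1C, its antisense transcript and REEP3 (chr10:63167221-63625123). FLT3, PAN3-AS1 and PAN3 formed a run on chromosome 13 (chr13:28003274-28295335). In the lower direction the chemokine genes CXCL1, CXCL3 and CXCL2 (chr4:73869393-74099293) and TCEAL4, TCEAL3 and TCEAL1 (chrX:103576231-103630953) did so. A further lower run held the zinc finger genes ZNF726 and ZNF254 and otherwise genes with clone names (chr19:23914876-24080669). How many runs the share of separated genes alone would give was not computed. Members of these families are alike in sequence, and antisense genes can share reads where strand was not used in counting.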
